A study of Mus musculus with 8 samples.

Results

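The genes described here are 33 genes of megakaryocytes and platelets, measured in whole blood of mice after 7 days of restraint stress (RST). They were chosen by name, as every probe set whose only gene symbol is one of the 33, and 31 of them had such a probe set among the 18193 genes the array names. Gp1ba, the largest chain of the von Willebrand factor receptor, and Ptgs1, the platelet cyclooxygenase, had none. Their levels were not analysed, and they enter only the promoter counts below. The 31 genes had 52 probe sets, of which 47 passed a filter on dim signal (a level over the array median in 2 or more of the 4 RST or the 4 control mice). These 47 stood for 30 genes, and each of the 30 passed in both groups. F2rl3, the PAR4 thrombin receptor, was below the array median in all 8 mice.

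The 8 arrays held blood of 8 female C57BL/6J mice with no genetic alteration given, 1 mouse per array. The mice were 6 to 8 weeks old when purchased and were acclimated before the restraint period. The 4 RST mice were confined in ventilated tubes for 6 h on each day and were killed on Day 7, and fasting without water over the same hours was the only treatment given for the 4 control mice. Each value is a log2 level of a probe set on an Affymetrix mouse genome array, so a difference of 1 is a 2-fold difference, and levels of different genes are not set against each other. Because the RNA came from whole blood, more or fewer platelets and more or less RNA per platelet cannot be told apart.

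Platelets have no nucleus. Their RNA is a remnant of the megakaryocyte, the large bone marrow cell that sheds them, and it is lost as platelets age in the circulation. Megakaryocytes and red cell precursors arise from a shared progenitor and share the transcription factors GATA1 and NFE2, while FLI1, a factor of the ETS family, favours the megakaryocyte path. A platelet meets a damaged vessel through glycoprotein receptors for von Willebrand factor and collagen, is activated through receptors for thrombin, ADP and ATP, and then releases granules that hold chemokines, adhesive proteins and clotting factors.

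The promoters of 5 members are shown because GATA1 and ETS factors are the known regulators of this gene class. They are those of the 3 receptor genes Gp9, Gp5 and Itga2b, each with a higher mean in RST mice, of the chemokine gene Pf4, with nearly equal means, and of the matrix protein gene Sparc, with a lower one. Each sequence is the 250 bases before a RefSeq transcript start in GRCm38.p6, written 5′ to 3′ on the strand of the gene, at chr6:87777820-87778069 (plus strand) for Gp9, chr16:30310782-30311031 (minus strand) for Gp5, chr11:102469884-102470133 (minus strand) for Itga2b, chr5:90772185-90772434 (plus strand) for Pf4 and chr11:55420081-55420330 (minus strand) for Sparc. Capitals mark the letters GATAA, the core of GATA sites, and GGAAG, which holds the core of ETS sites, on either strand. The 2 motifs can share a letter.
Gp9: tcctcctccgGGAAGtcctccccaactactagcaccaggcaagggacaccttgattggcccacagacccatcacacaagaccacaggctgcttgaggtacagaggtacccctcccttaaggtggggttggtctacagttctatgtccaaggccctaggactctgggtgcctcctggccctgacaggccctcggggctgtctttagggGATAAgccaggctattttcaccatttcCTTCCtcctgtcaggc
Gp5: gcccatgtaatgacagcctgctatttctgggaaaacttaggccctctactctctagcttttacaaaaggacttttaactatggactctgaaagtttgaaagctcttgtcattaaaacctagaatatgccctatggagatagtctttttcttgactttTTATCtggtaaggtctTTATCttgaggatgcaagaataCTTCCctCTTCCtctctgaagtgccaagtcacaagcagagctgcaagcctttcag
Itga2b: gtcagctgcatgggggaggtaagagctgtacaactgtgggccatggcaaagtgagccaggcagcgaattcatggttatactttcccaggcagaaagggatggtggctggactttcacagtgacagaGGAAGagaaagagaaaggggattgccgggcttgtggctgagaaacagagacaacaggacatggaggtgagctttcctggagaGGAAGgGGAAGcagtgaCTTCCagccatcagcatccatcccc
Pf4: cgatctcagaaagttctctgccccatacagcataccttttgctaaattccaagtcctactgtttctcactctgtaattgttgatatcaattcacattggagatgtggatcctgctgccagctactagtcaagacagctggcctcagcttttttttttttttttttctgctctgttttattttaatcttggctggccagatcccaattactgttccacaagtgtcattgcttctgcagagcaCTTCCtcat
Sparc: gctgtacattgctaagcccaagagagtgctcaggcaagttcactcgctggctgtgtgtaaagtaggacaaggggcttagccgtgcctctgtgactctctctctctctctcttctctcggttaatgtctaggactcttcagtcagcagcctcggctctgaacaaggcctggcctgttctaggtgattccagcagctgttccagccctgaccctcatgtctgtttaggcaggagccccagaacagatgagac
Gp9 and Gp5 held both motifs, Itga2b and Pf4 held GGAAG alone, and Sparc held neither in this window. Among members not shown, Nbeal2, with a lower mean in RST mice, held both motifs, as did F2rl2 and Mmrn1, with higher means. P2ry1, with a higher mean, held GGAAG alone. A link between motifs and direction of change was not tested. Of the 33 members, 28 had an entry in the RefSeq table, with 30 promoters among them. GATAA stood in 13 of the 30 (43.3%), against 22.6% of 32851 promoters of all genes. GGAAG stood in 24 (80.0%), against 64.1% of all promoters, and both in 8 (26.7%), against 13.2%. These shares describe letters and show no binding.

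No member passed the adjusted threshold (limma, adjusted p under 0.05 and a fold above 1.5), and neither did any other of the 25084 probe sets tested (0.0%). With each member at its brightest probe set, as in the counts that follow, the smallest adjusted p was 0.33, in limma. A dimmer probe set of Rab27b, described below, had an adjusted p of 0.32 in limma. Where the p was left unadjusted (under 0.05, fold above 1.5), 1 of 30 members was lower in RST mice, Sparc, beside 12.8% of all 11762 genes past the filter. None was higher, beside 2.8% of all genes. RST and control values did not overlap for 0 of the 30 members, beside 2.37% of all genes with every RST value higher and 6.57% with every RST value lower.

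The members had a higher mean in RST mice more often than not. This held for 23 of 30 members, against 32.4% of all genes past the filter, and the median log2 fold change was 0.19 over the members and −0.24 over all genes. With each array scaled to its control probe sets, 13 members had a higher mean, against 19.0% of all genes, and with quantile normalization it was 24 members, against 46.1%. With no filter it was 24 of 31 members, against 45.6% of all 18193 genes. The distance between the median member and the median gene was 0.43 as deposited and under control probe scaling, 0.25 after quantile normalization and 0.23 with no filter on dim probe sets. Control probe scaling shifts a whole array by a constant, so it cannot move this distance. All these genes were not matched to the members for signal level. Above a mean log2 level of 10, a limit chosen after the values were seen, the median was 0.050 over 11 members and 0.17 over 347 genes. For the rest it was 0.27 over 19 members and −0.26 over 11415 genes. Of all probe sets with an unadjusted p under 0.05 and a fold above 1.5 in limma, 78.3% were lower in RST mice. This share was 52.9% after quantile normalization and 94.1% with control probe scaling.

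**Figure D1:**
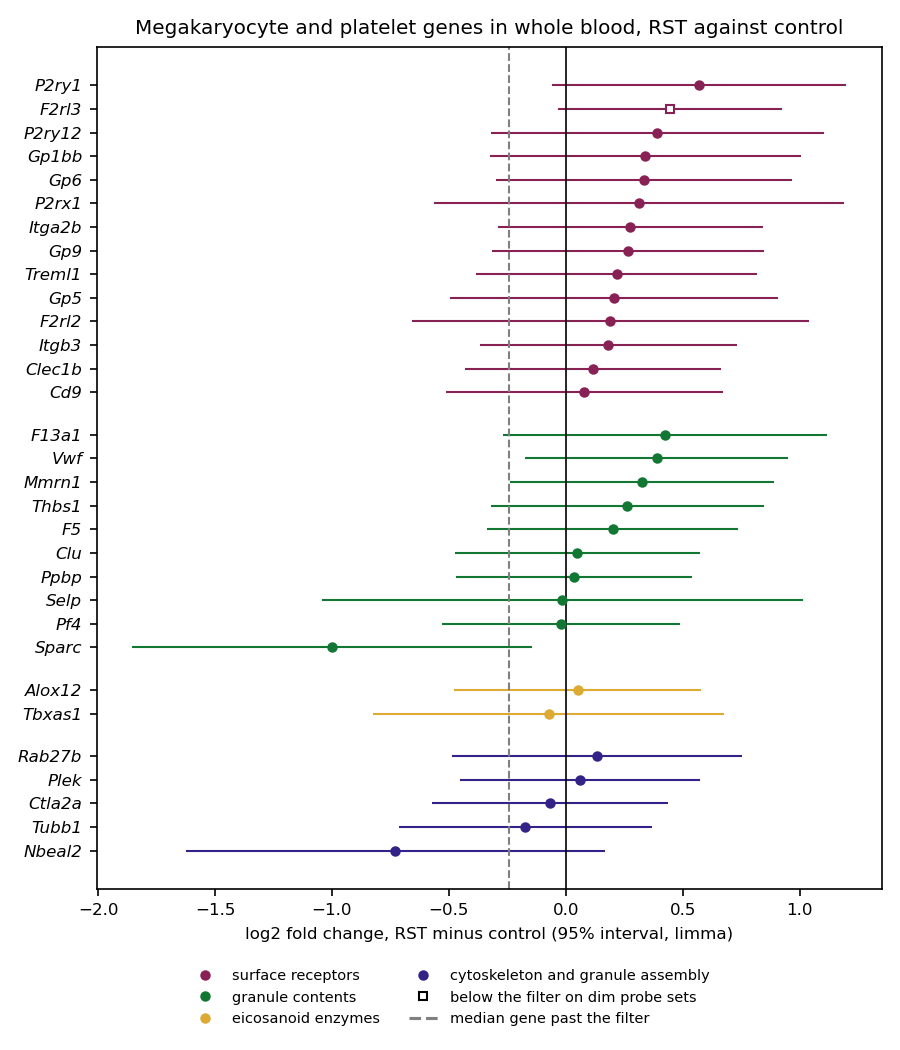
The log2 fold change (RST minus control) of each of 31 members is shown with its 95% interval from limma, grouped and coloured by role; an open square marks F2rl3, below the filter, and the dashed line the median gene past the filter. Of the 31 intervals, 30 hold 0 and that of Sparc lies below it; the 14 receptor points lie above 0, a sign that 4 of them lose under control probe scaling.

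The receptor genes had the most uniform signs. All 13 receptor genes past the filter had a higher mean in RST mice, with log2 fold changes from 0.078 to 0.57 and a median of 0.27, and 9 of the 13 kept that sign under control probe scaling. All 13 lay above the median gene under every setting tried. Control probe scaling, the replicate block, another prior and the test the methods name cannot alter that count. Without control mouse 3, or without RST mouse 2, 11 of the 13 had a higher mean. With the data as deposited and all 8 mice, 0 of the 13 passed the adjusted or the unadjusted threshold in limma, and RST and control mice overlapped for each.

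P2ry1, an ADP receptor that starts platelet shape change, stood at 4.14, 4.07, 3.69 and 3.70 in control mice 1 to 4 and at 4.44, 5.07, 4.34 and 4.03 in RST mice 1 to 4. RST mice 1 to 3 were above every control mouse, and RST mouse 4 lay within the control range. The log2 fold change was 0.57 (95% interval −0.058 to 1.2, limma adjusted p = 0.39; exact permutation p = 0.086, two-sided). P2ry12, the ADP receptor that clopidogrel blocks, stood at 8.38, 8.13, 7.72 and 8.60 in control mice and at 8.92, 8.82, 8.85 and 7.81 in RST mice. RST mice 1 to 3 were above every control mouse, while RST mouse 4 was below all control mice but control mouse 3. The difference between the means was 0.39 on the log2 scale (standard error 0.32, limma adjusted p = 0.58).

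P2rx1, an ATP-gated channel, had the widest span among RST mice of the 3 nucleotide receptors, from 5.02 in RST mouse 4 to 7.14 in RST mouse 2, against 5.43 to 6.01 in control mice. The difference was 0.31 on the log2 scale (standard error 0.40), and −0.015 without RST mouse 2. F2rl2, the PAR3 thrombin receptor, ran from 6.05 to 7.21 in control mice and from 5.90 to 7.60 in RST mice, with a log2 fold change of 0.19 (standard error 0.39). F2rl3, the receptor that carries the thrombin signal in mouse platelets, was measured at 1.79, 1.96, 1.81 and 1.95 in control mice and at 2.43, 2.55, 2.54 and 1.77 in RST mice. These levels lay under the array medians of 3.19 to 3.46, and its log2 fold change of 0.44 (95% interval −0.035 to 0.92, adjusted p = 0.48 in limma over all probe sets) is one between dim signals.

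Itga2b, the integrin chain that with Itgb3 forms the fibrinogen receptor and that marks the megakaryocyte lineage, stood at 8.67, 8.32, 8.71 and 8.56 in control mice and at 8.82, 9.14, 8.98 and 8.42 in RST mice. The same 3 RST mice were above all control mice. This gave a log2 fold change of 0.28 (95% interval −0.29 to 0.84, limma adjusted p = 0.63; exact permutation p = 0.17, two-sided). Itgb3 had 0.18 (standard error 0.25), with control mice from 10.16 to 10.70 and RST mice from 10.42 to 10.90.

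Gp9, a chain of the von Willebrand factor receptor complex, stood at 9.54, 9.26, 9.02 and 9.50 in control mice and at 9.87, 9.82, 9.48 and 9.22 in RST mice. RST mice 1 and 2 were above the control range and the other two within it. This gave a log2 fold change of 0.27 (95% interval −0.31 to 0.85, limma adjusted p = 0.65; exact permutation p = 0.29, two-sided). The other measured chains of the complex had log2 fold changes of 0.34 for Gp1bb, 0.31 at its other probe set, and 0.21 for Gp5. Gp6, the collagen receptor, had 0.33, and Treml1, a granule membrane receptor brought to the surface on activation, had 0.22. Clec1b, the receptor for podoplanin, had 0.11 and Cd9, a tetraspanin also made by many leukocytes, had 0.078. Their standard errors ran from 0.25 to 0.32.

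**Figure D2:**
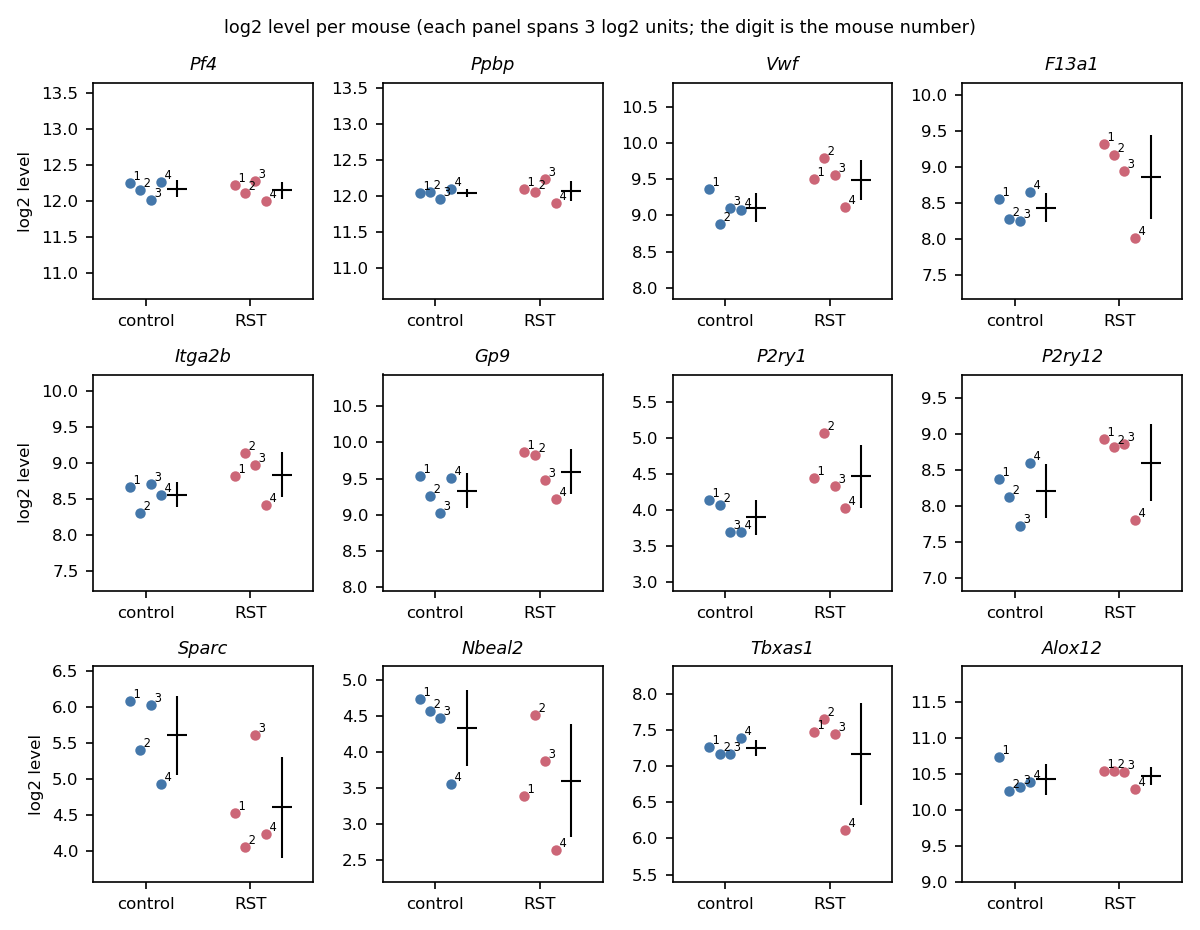
Log2 levels of 12 members in each control mouse (blue) and RST mouse (red), with the mean and SD of each group beside the points (n = 4 each); every panel spans 3 log2 units. Pf4 and Ppbp lie between 11.90 and 12.27 in all 8 mice, while RST mouse 4 is the lowest RST mouse for every gene drawn except Sparc.

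Genes of the granule contents ranged most widely, with a higher mean in RST mice for 7 of 10 and a lower one for 3, and with log2 fold changes from −1.0 to 0.42. The low end was the brightest probe set of Sparc alone, and the next lowest gene was Pf4 at −0.019. Under control probe scaling 4 of the 10 had a higher mean. Pf4, platelet factor 4, a chemokine of the alpha granule, stood at 12.25, 12.15, 12.01 and 12.26 in control mice and at 12.22, 12.11, 12.27 and 12 in RST mice. Both groups covered the same range, and the log2 fold change was −0.019 (95% interval −0.53 to 0.49, limma adjusted p = 0.98; exact permutation p = 0.77, two-sided). Ppbp, the precursor of platelet basic protein and the gene next to Pf4, stood at 12.05, 12.05, 11.96 and 12.09 in control mice and at 12.10, 12.05, 12.23 and 11.90 in RST mice. Its log2 fold change was 0.034 (95% interval −0.47 to 0.54, limma adjusted p = 0.96; exact permutation p = 0.74, two-sided). As a fold of RST over control, the interval ran from 0.69 to 1.4 for Pf4 and from 0.72 to 1.45 for Ppbp.

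Vwf, von Willebrand factor, stood at 9.37, 8.88, 9.11 and 9.07 in control mice and at 9.51, 9.79, 9.56 and 9.11 in RST mice. RST mice 1 to 3 were above all control mice, and RST mouse 4 was within the control range. The log2 fold change was 0.39 (95% interval −0.17 to 0.95, limma adjusted p = 0.49; exact permutation p = 0.057, two-sided). F13a1, the A chain of clotting factor XIII, stood at 8.57, 8.29, 8.26 and 8.65 in control mice and at 9.32, 9.17, 8.95 and 8.02 in RST mice. RST mice 1 to 3 were again above, and RST mouse 4 was below every control mouse. The means differed by 0.42 on the log2 scale (95% interval −0.27 to 1.12, limma adjusted p = 0.54; exact permutation p = 0.20, two-sided).

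Vwf is also a gene of endothelial cells, and F13a1 one of monocytes. Of 12 endothelial genes, 6 were past the filter, Cdh5, Robo4, Tie1, Cldn5, Nos3 and Erg were below it, and the score of the 6 ran from −0.72 to 0.40 in control mice and from −0.13 to 0.34 in RST mice. For all 10 monocyte genes measured the RST mean was the lower one, while 32.4% of all genes past the filter had a higher one. The score of the 10 monocyte genes ran from −0.21 to 0.62 in control mice and from −0.63 to 0.081 in RST mice. The part of either cell type in the values of Vwf and F13a1 was not tested.

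Sparc is an acidic matrix protein that platelets store in alpha granules and that fibroblasts also make. With each member at its brightest probe set, Sparc had the lowest p. It stood at 6.08, 5.40, 6.03 and 4.93 in control mice and at 4.53, 4.06, 5.62 and 4.24 in RST mice. RST mice 1, 2 and 4 were below all control mice, and RST mouse 3 was above control mice 2 and 4. The log2 fold change was −1.0 (95% interval −1.85 to −0.14, unadjusted p = 0.026, adjusted p = 0.33 in limma; exact permutation p = 0.086, two-sided). It did not pass the unadjusted threshold after quantile normalization, with array weights, with the test the methods name, when control mice 1 and 2 were left out together, or when any single one of control mice 1 and 3 and RST mice 1, 2 and 4 was left out, and it ran from −1.33 to −0.82 over the fits that left out 1 mouse. The other 2 probe sets of Sparc, both dimmer, had log2 fold changes of −0.22 and 0.078. Of 8 fibroblast genes 5 were past the filter, and their score ran from −0.75 to 0.66 in control mice and from −0.15 to 0.58 in RST mice. The part of fibroblasts was not tested.

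Mmrn1, multimerin, which binds clotting factor V, differed by 0.33 on the log2 scale (standard error 0.26, limma adjusted p = 0.56), with RST mice 1 to 3 from 9.20 to 9.31, control mice from 8.59 to 8.91 and RST mouse 4 at 8.62. Thbs1, the adhesive protein thrombospondin, had 0.26, with 2 of the 4 RST mice inside the control range, and F5, clotting factor V, had 0.20, with RST mouse 4 inside it. Clu, clusterin, had 0.049, and its 4 probe sets gave log2 fold changes from 0.034 to 0.081. Selp, P-selectin, the granule protein that tethers leukocytes, had −0.015 with a 95% interval of −1.04 to 1.01, and control mice ranged from 5.85 to 8.54. Selp lies beside F5 in the genome and its 3 probe sets all had control mouse 2 as the highest mouse.

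Of the eicosanoid enzymes, Tbxas1, thromboxane synthase, stood at 7.27, 7.17, 7.16 and 7.40 in control mice and at 7.47, 7.66, 7.45 and 6.12 in RST mice. RST mice 1 to 3 lay above every control mouse and RST mouse 4 more than 1 log2 unit below all the others. The log2 fold change of −0.073 (95% interval −0.82 to 0.68, limma adjusted p = 0.94; exact permutation p = 1.0, two-sided) was 0.28 without RST mouse 4 and 0.22 after quantile normalization. Alox12, the lipoxygenase of platelets, stood at 10.73, 10.26, 10.31 and 10.39 in control mice and at 10.54, 10.54, 10.53 and 10.29 in RST mice. Each RST mouse lay within the control range and control mouse 1 was the highest of all, with a log2 fold change of 0.050 (95% interval −0.48 to 0.58, limma adjusted p = 0.94; exact permutation p = 0.71, two-sided).

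The 5 genes of the platelet skeleton and of granule assembly had 2 higher and 3 lower means, and none of the 5 had a higher mean under control probe scaling. Nbeal2, whose loss empties platelet alpha granules in gray platelet syndrome, stood at 4.73, 4.57, 4.46 and 3.56 in control mice and at 3.38, 4.51, 3.87 and 2.64 in RST mice. RST mice 1 and 4 were below all control mice. Its log2 fold change was −0.73 (95% interval −1.62 to 0.17, limma adjusted p = 0.43; exact permutation p = 0.20, two-sided), and its other probe set, below the filter, gave 0.41. Tubb1, the tubulin of the platelet marginal band, had −0.17 (standard error 0.25), Ctla2a, a cathepsin inhibitor, −0.067, and Plek, pleckstrin, 0.060. The other 2 probe sets of Plek gave −0.045 and 0.27.

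Rab27b, a small GTPase of granule secretion, had 4 probe sets that disagreed. The brightest gave a difference of 0.13 (standard error 0.28) and 2 others gave −0.20 and 0.33, the last below the filter. The remaining probe set stood at 5.87, 5.44, 5.14 and 5.84 in control mice and at 6.47, 6.47, 6.24 and 6.06 in RST mice. Every RST mouse was above every control mouse, which held for 1 of the 47 member probe sets past the filter, beside 2.23% of all probe sets, and 2.89% of all were past the unadjusted threshold and higher. Its log2 fold change was 0.74 (95% interval 0.15 to 1.32, unadjusted p = 0.018, adjusted p = 0.32 in limma). Of the 14 members with several probe sets, 6 had probe sets of both signs, namely Mmrn1, Nbeal2, Plek, Rab27b, Selp and Sparc.

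**Figure D3:**
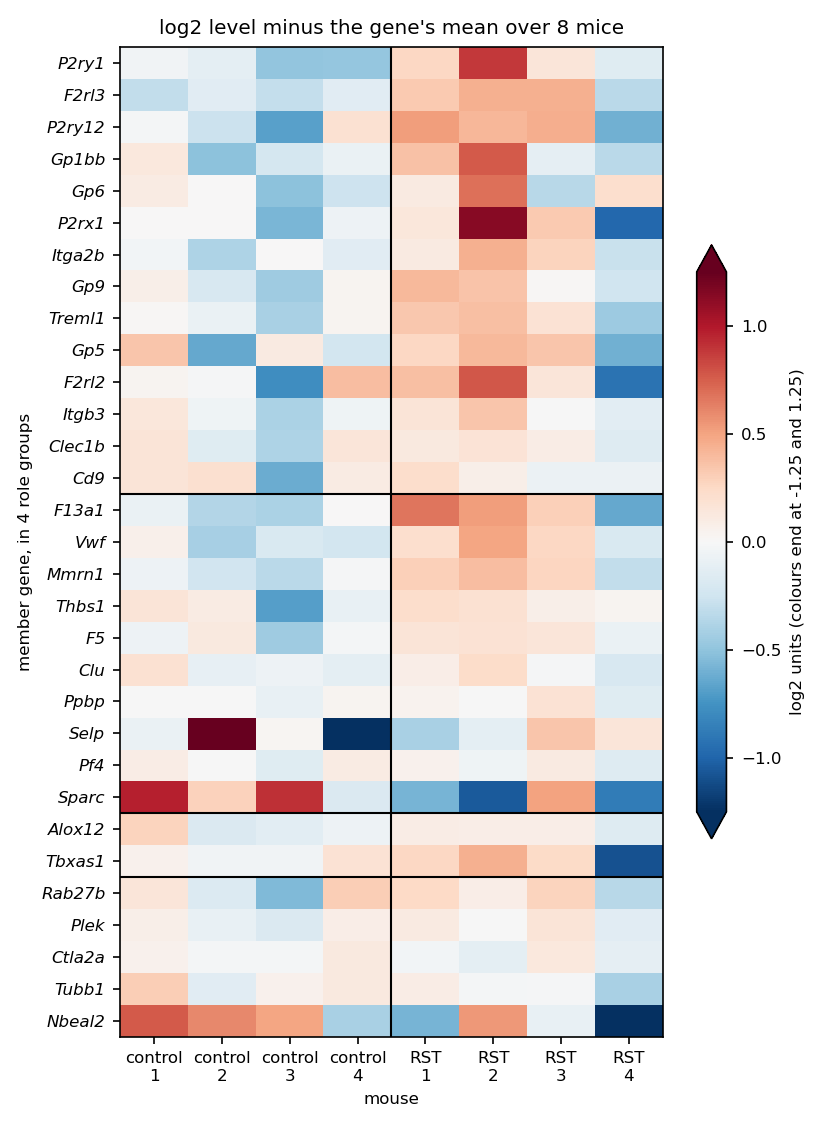
Each cell is the log2 level of a member (rows, in the order of surface receptors, granule contents, eicosanoid enzymes, and cytoskeleton and granule assembly) in a mouse (columns) minus the mean of the gene over 8 mice; red is above and blue below, on the log2 scale of the colour bar. Control mouse 3 is the lowest mouse for 12 of the 30 members past the filter and RST mouse 4 for 10, and RST mouse 2 is the highest for 15.

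The brightest members lay close to 0. Of the 11 members with a mean log2 level above 10, the log2 fold changes lay between −0.17 and 0.20 with a median of 0.050, beside a median of 0.17 and a 5th to 95th percentile of −0.66 to 0.80 over all 347 genes that bright. The 19 dimmer members had a median of 0.27, beside −0.26 over the 11415 other genes. This limit of 10 was chosen after the values were seen. Of the 30 members past the filter, 21 had a 95% interval that stayed within 2-fold both ways, and for the other 9 the interval reached 2-fold.

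The mice differed in how often they were at either end. RST mouse 2 was the highest mouse for 15 of 30 members (50.0%), against 14.5% of all genes past the filter. Control mouse 3 was the lowest for 12 (40.0%), against 6.53% of all genes, and RST mouse 4 for 10 (33.3%), against 46.8%. Of the array measures, RST mouse 4 had the lowest 75th percentile of all probe sets, 4.50 against 5.05 to 5.37 in the others, and control mouse 3 had the largest excess of the 3′ over the 5′ actin control probe set, 1.67 log2 units against 0.57 to 1.06. Control mice 1 and 2 had the lowest added hybridization controls, 11.93 and 11.90 against 12.35 to 12.74. The part of these in the members' values was not tested.

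Leaving out RST mouse 4 gave 4 members past the unadjusted threshold, all higher in the remaining 3 RST mice. They were P2ry1 at a log2 fold change of 0.72, F13a1 at 0.71, P2rx1 at 0.69 and P2ry12 at 0.66, with adjusted p from 0.35 to 0.43 in limma. In that fit 11.2% of all probe sets passed the unadjusted threshold, 53.5% of them lower. Leaving out other mice gave members that passed and were lower. Nbeal2 did so without control mouse 4 (−0.99) or RST mouse 2 (−1.03), with adjusted p of 0.32 and 0.20 in limma. Sparc did so without control mouse 2 (−1.07), control mouse 4 (−1.23) or RST mouse 3 (−1.33), with adjusted p from 0.28 to 0.68 in limma. Over the fits named for Nbeal2 and Sparc, 7.15% to 20.0% of all probe sets passed. Of those that passed, 75.4% to 85.7% were lower. Without control mouse 3 the median of the members was 0.056 in place of 0.19, and without RST mouse 2 it was 0.087. Relative to the median gene these medians were 0.35 and 0.41. After quantile normalization 3 receptor genes passed the unadjusted threshold and were higher, P2ry1 at 0.74, P2rx1 at 0.64 and Gp6 at 0.63, with adjusted p from 0.24 to 0.34 in limma. With a covariate for the hybridization controls, P2ry1 at 0.83 and Gp6 at 0.60 passed the unadjusted threshold and were higher, and Sparc at −1.05 was lower, with adjusted p from 0.56 to 0.58 in limma. With this covariate 8.34% of all probe sets passed, 68.7% of them lower. With control mice 1 and 2 left out together, 25 members had a higher mean, against 35.55% of all genes. None passed the unadjusted threshold then, against 3.57% of all probe sets.

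**Figure D4:**
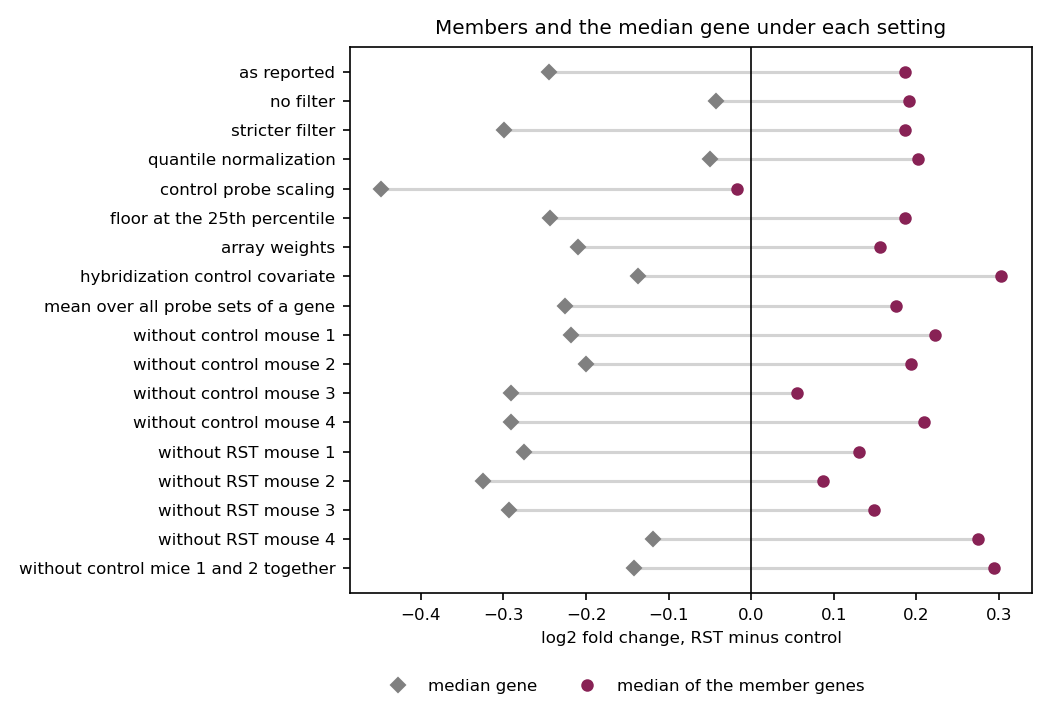
Median log2 fold change of the members (circles) and of all genes (diamonds) under each processing setting and with mice left out. The circle lies to the right of the diamond in every row, by 0.23 to 0.50, while its own position runs from −0.017 with control probe scaling to 0.30 with a covariate for the hybridization controls. Control probe scaling moves circle and diamond alike and cannot alter their distance.

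The members were then set against 30 erythroid genes, of which 25 were past the filter. Each list was scored in each mouse as the mean, over its genes, of the log2 level minus that gene's mean, less the same value of the array's median gene. The platelet score was −0.10, −0.32, −0.26 and −0.093 in control mice 1 to 4 and 0.19, 0.17, 0.12 and 0.13 in RST mice 1 to 4. The erythroid score was −0.51, −1.05, −0.26 and 0.001 in control mice and 0.60, 0.57, 0.21 and 0.27 in RST mice. For both scores each RST mouse was above each control mouse.

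The separation of the platelet score rested on the median gene of the array as the reference and on the filter. Not set against the median gene, the platelet score was 0.13, −0.049, −0.24 and −0.063 in control mice and 0.14, 0.29, 0.15 and −0.36 in RST mice, and RST mouse 4 was the lowest of all. With no filter the scores of control mouse 1, 0.14, and RST mouse 4, −0.12, crossed, and after quantile normalization RST mouse 4, −0.033, lay just below control mouse 1, −0.026. The erythroid score did not overlap after quantile normalization, but overlapped with no filter and when not set against the median gene.

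**Figure D5:**
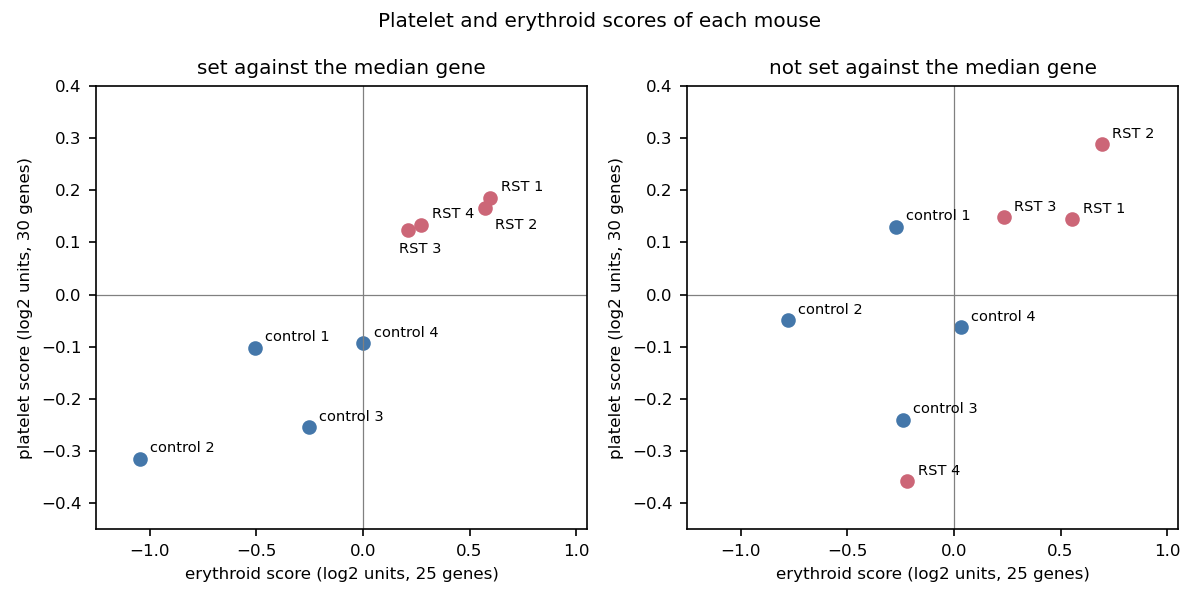
Platelet score (30 genes) against erythroid score (25 genes) of each control mouse (blue) and RST mouse (red), with the array's median gene as reference on the left and without that reference on the right. On the left the RST mice lie above and to the right of all control mice; on the right RST mouse 4 has the lowest platelet score, −0.36.

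The difference between the erythroid and the platelet score of a mouse is not altered by a constant shift of its array, though other normalizations can move it. With the data as deposited it was −0.40, −0.73, 0.0 and 0.094 in control mice and 0.41, 0.40, 0.086 and 0.14 in RST mice, with means of −0.26 ± 0.38 and 0.26 ± 0.17 (SD, n = 4 each). RST mice 1 and 2 had the largest excess of erythroid over platelet levels, while RST mouse 3 lay just under control mouse 4. The receptor score minus the granule score overlapped between groups, from −0.27 to 0.15 in control mice and −0.12 to 0.45 in RST mice. Of the 25 erythroid genes, 11 were past the unadjusted threshold and higher, 10 had every RST value higher, and 23 had a higher mean. For the 30 members these counts were 0, 0 and 23, and over all genes past the filter the shares were 2.8%, 2.37% and 32.4%. Under control probe scaling 20 of the 25 erythroid genes had a higher mean. The erythroid list was chosen with earlier results of these data known, so its counts describe the list and test nothing. Fbxo7, an adaptor of a ubiquitin ligase of maturing red cells, had a log2 fold change of 1.2 and Selenbp1, a selenium-binding protein, one of 1.29 (adjusted p = 0.32 for each in limma).

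Other genes of platelet function had means of both signs. Of 29 measured genes of platelet signalling, 13 had a higher mean, against 32.4% of all genes past the filter, and 16 a lower one. Their median lay 0.11 above the median gene. Plcg2, the phospholipase downstream of the collagen receptor, was the only one of the 29 past the unadjusted threshold, beside 12.8% of all genes lower and 2.8% higher. It was lower by a log2 fold change of −0.93 (adjusted p = 0.33 in limma). Plcg2 is also a gene of B cells. Of the 12 B cell genes past the filter, 11 were past the unadjusted threshold, all lower, beside 12.8% of all genes. The score of the 12 was −0.035 to 0.78 in control mice and −0.67 to −0.37 in RST mice. The part of B cells in the value of Plcg2 was not tested. Syk, the kinase that relays signals of the collagen receptor and also one of B cells, had the second lowest p, with a log2 fold change of −0.65 (unadjusted p = 0.055, adjusted p = 0.37 in limma). Cd84, a receptor of platelets and lymphocytes chosen after its values were seen, was the one gene of the 29 whose groups did not overlap, beside 2.37% of all genes with every RST value higher. Control mice ran from 8.49 to 9.01 and RST mice from 9.13 to 9.27, with a log2 fold change of 0.48 (adjusted p = 0.39 in limma).

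Of the other marker lists, all 12 T cell genes had a lower mean, 8 of them past the unadjusted threshold, and the score was 0.056 to 0.46 in control mice and −0.43 to −0.010 in RST mice. Of 11 neutrophil genes 6 had a lower mean, 3 of them past the unadjusted threshold, and the scores overlapped. Over all genes past the filter, 32.4% had a higher mean and 12.8% were past the unadjusted threshold and lower. Of 8 cardiac muscle genes, 2 were past the filter, and their score was 1.58 in control mouse 2, against −0.77 to −0.28 in the other control mice and −1.42 to 0.96 in RST mice. Myl2, a light chain of heart muscle myosin, stood at 7.07 in control mouse 2 and at 2.42 to 5.36 in the other mice. The part of these cells in the members' values, those of Selp included, was not tested.

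Of 26 further genes of granules and the platelet skeleton past the filter, 13 had a higher mean, against 32.4% of all genes, and 13 a lower one. Their median lay 0.23 above the median gene. Cd36, a scavenger receptor that binds thrombospondin, stood at 9.19, 9.0, 9.20 and 10.10 in control mice and at 10.89, 10.96, 10.06 and 10.55 in RST mice. RST mouse 3 lay just below control mouse 4. Its log2 fold change was 1.24 (standard error 0.32, unadjusted p = 0.0025, adjusted p = 0.32 in limma), larger than that of any member. For Cd36 and the erythroid score alike, control mouse 2 was the lowest mouse. Control mouse 4 was the highest control mouse and RST mouse 3 the lowest RST mouse for both. The part of red cell precursors or other blood cells in the value of Cd36 was not tested. Hps4, a gene of dense granule assembly, was past the unadjusted threshold and lower, at −1.19. Of the 26, 1 was past that threshold and higher and 2 were past it and lower, beside 2.8% and 12.8% of all genes.

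Of 15 measured transcription and growth factor genes of megakaryocytes, 6 had a higher mean, against 32.4% of all genes past the filter, and 9 a lower one. In limma 0 of the 15 were past the unadjusted threshold, beside 2.8% of all genes higher and 12.8% lower. Gata1, which the erythroid list also holds, had the lowest p of the 15, at 0.66 on the log2 scale (standard error 0.35, limma adjusted p = 0.40). Nfe2, which drives platelet release, had 0.24 and Etv6, an ETS repressor, had −0.78 (standard error 0.46).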

How the data were processed

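Whole blood RNA of 4 RST and 4 control mice was amplified and hybridized to 1 Affymetrix mouse genome array per mouse. The authors deposited 1 log2 value per probe set. Tools listed in the submitters' processing notes are RMA, Partek and Affymetrix Expression Console 1.2.0.20. The methods state GSRMA in the Genomic Suite of Partek. Such summaries compress differences of dim and of very bright probe sets, and the number of arrays limits the precision. Presence calls were not used here.

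From the deposited log2 values, 64 control probe sets were left out and a probe set was kept where it exceeded the array median in 2 or more of the 4 mice of either group. The groups were compared in R 4.3.3 with limma 3.58.1 (lmFit and eBayes with the default prior, Benjamini-Hochberg adjustment over all probe sets tested), and a member below the filter comes from a fit over all probe sets. The fit was tested on simulated data. Of the probe sets, 34945 had 1 gene in the platform annotation, 34741 of them updated through the Entrez identifier to GRCm38.p6, 932 had several and 9160 had no entry. The brightest probe set past the filter stood for a gene. Exact permutation tests of 4 against 4 mice have a smallest two-sided p of 0.029. Members and lists were chosen with earlier results of these data known, and no list was tested as a set. All members are named, with values per mouse for the 6 of lowest p and for Pf4, Ppbp, Itga2b, Gp9, Tbxas1 and Alox12. Values per mouse of P2ry12, a second probe set of Rab27b and Cd36 were added after they were seen. Of each other list the 2 genes of lowest p could be named, and Nfe2, Cd84 and Myl2 were named after their values were seen. Alternatives were another or no filter, quantile and control probe scaling, array weights, a floor (25th percentile), a trended and robust prior, the test the methods name, a covariate, a replicate block, all probe sets of a gene, and fewer mice. Figures come from matplotlib 3.10.9 (Python 3.11.15).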

Additional observations from a re-analysis of the deposited data

Results flagged for a closer look

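Groups of 4 mice were tested for 31 members and 6 list scores, in RST and in control mice. In 9 of these 74 groups, 1 mouse lay far from the other 3. Chance flags about 1 in 20 independent groups, but the 74 share the same 8 arrays, so their count cannot be read against that rate. In 7 of the 9 flagged groups the far mouse was RST mouse 4, as the lowest RST mouse. It stood at 10.29 for Alox12 (the others at 10.53 to 10.54), 1.77 for F2rl3 (2.43 to 2.55), 10.24 for F5 (10.47 to 10.50), 7.58 for Gp5 (8.44 to 8.58), 8.62 for Mmrn1 (9.20 to 9.31), 7.81 for P2ry12 (8.82 to 8.92) and 6.12 for Tbxas1 (7.45 to 7.66). RST mouse 4 also had the lowest 75th percentile of all probe sets. In the other 2 it was control mouse 3 as the lowest control mouse, at 11.37 for Cd9 (12.10 to 12.19) and 5.43 for P2rx1 (5.94 to 6.01), and that array had the largest 3′ excess of the actin control. The part of these array measures was not tested.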

How the results depend on the processing

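No member was called changed under any alternative with a test, while 35 probe sets, none of them a member's, were called in limma when the prior was trended and robust. The sample labels do not say whether mice of the same replicate number are pairs. The correlations of their deviations were −0.24, 0.42, 0.046 and 0.20 for numbers 1 to 4. For mice of unlike numbers they ran from −0.54 to 0.52, so these values cannot decide whether the numbers pair mice. With the replicate block 0 probe sets and 0 members were called, and 2 members (Sparc and Nbeal2) were past the unadjusted threshold and lower. Of all probe sets 16.9% were past it with the block, 82.8% of them lower. The block is balanced over the groups and cannot move a fold change, so the members' median relative to the median gene stayed 0.43 by construction. That median was 0.23 with no filter, 0.25 after quantile normalization, and 0.35 to 0.50 without 1 mouse. With control probe scaling 13 members had a higher mean. Relative to the median gene, the receptor median was 0.31 with no filter. The granule median was 0.17 with no filter, 0.21 after quantile normalization, 0.49 with the hybridization covariate, 0.48 without control mice 1 and 2 (chosen after seeing the data) and 0.31 to 0.49 without 1 mouse. The eicosanoid median was 0.031 with no filter. The cytoskeleton median was −0.025 with no filter, −0.060 after quantile normalization, 0.045 with the covariate, 0.059 without control mice 1 and 2 and 0.077 to 0.29 without 1 mouse. The erythroid median was 0.54 without control mice 1 and 2.

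The replicate block, another prior or the test the methods name leaves a fold change unaltered and cannot turn its sign. Of 583 log2 fold changes of single members under alternatives, 37 in 14 genes turned sign. With control probe scaling these were Alox12 (−0.15), Cd9 (−0.13), Clec1b (−0.089), Clu (−0.15), F2rl2 (−0.013), F5 (−0.0030), Itgb3 (−0.022), Plek (−0.14), Ppbp (−0.17) and Rab27b (−0.072), and after quantile normalization Alox12 (−0.014), Pf4 (0.012), Plek (−0.0032), Selp (0.18) and Tbxas1 (0.22). Array weights gave Pf4 0.016 and Tbxas1 0.12, the covariate gave Pf4 0.0049 and Selp 0.40, the mean of probe sets gave Selp 0.00094, and leaving out control mice 1 and 2 gave Pf4 0.012 and Selp 0.63. Without 1 mouse, Alox12 ran from −0.0034 to 0.15, Cd9 from −0.12 to 0.16, Clu from −0.019 to 0.13, F2rl2 from −0.037 to 0.53, P2rx1 from −0.015 to 0.69, Pf4 from −0.072 to 0.030, Ppbp from −0.020 to 0.090, Rab27b from −0.030 to 0.27, Selp from −0.45 to 0.44 and Tbxas1 from −0.23 to 0.28. The cause was not tested. The number of mice limits precision, and for 9 members the 95% interval reached 2-fold.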
